A study of Homo sapiens with 6 samples.

Results

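Tigger elements are DNA transposons, and 45 of the 15641 entries in the repeat count table carry a name that starts with Tigger. These 45 were taken by name alone, with earlier results of these data known, and all 45 passed the filter on low counts. The libraries hold chromatin-bound RNA of the established line H9 of human embryonic stem cells, with 3 libraries labelled naive and 3 labelled primed. The naive state was kept in RSeT, a commercial medium for naive-like human pluripotent cells. The labels give that same growth protocol to all 6 libraries, so the primed state rests on the treatment label, and no other treatment or genetic change is given for either group. All libraries come from a single cell line, and the labels do not name separate cultures. The p-values therefore cover only library-to-library spread, which may be technical. Where values are listed, they follow the order of libraries 1, 2 and 3 of a group.

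Tigger elements belong to the pogo group of the Tc1/mariner superfamily, which moves by cut and paste: a transposase made by the element excises it at its terminal inverted repeats and inserts it at a TA dinucleotide. The human copies are fossils that no longer move, many of them cut down to the ends of the element, and they lie scattered through introns and between genes. Genes related to pogo-type transposases remain in the human genome, among them CENPB, which encodes a centromere protein, POGZ, which encodes a chromatin protein, and the TIGD genes. Numbers and letters in the names mark families and subfamilies, and in the table the 45 entries fall under 23 numbers, 12 of which have a single entry.

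On the TMM scale, Tigger RNA on chromatin differed little between naive and primed libraries. Of the 45 entries, 1 rose in naive cells, 0 fell and 44 did not pass the test (edgeR quasi-likelihood test, Benjamini-Hochberg adjusted over the 3219 entries tested). The entry that rose was Tigger6, by 0.79 ± 0.18 (log2, SE), which is 1.73-fold. At an unadjusted p under 0.05 by edgeR the counts were 5 higher and 0 lower, beside 1017 of all 3219 entries tested, in either direction. DESeq2 also called 1 Tigger entry higher and 0 lower. Over the 2124 entries to which it gave an adjusted p, it called 94 higher and 114 lower. In bulk libraries, fewer cells of a type and less RNA per cell cannot be told apart. Over all 3219 entries tested, 4.94% were called higher and 7.77% lower. Among the 1265 named repeats tested (transposons, satellites and structural RNAs, without simple repeats), 10.4% were called higher and 1.19% lower, against 2.22% of the Tigger entries called higher. At an unadjusted p under 0.05 by edgeR, 398 of these 1265 passed, in either direction. The median log2 change was 0.18 over the Tigger entries, 0.21 over the named repeats and -0.0046 over all entries tested. These counts and medians use TMM factors, which assume that most entries do not change. Scaling by library size alone turned the Tigger median to -0.47, with 9 Tigger entries called lower and 0 higher. Over all 3219 entries tested, that scaling called 1051 lower and 28 higher.

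**Figure D1:**
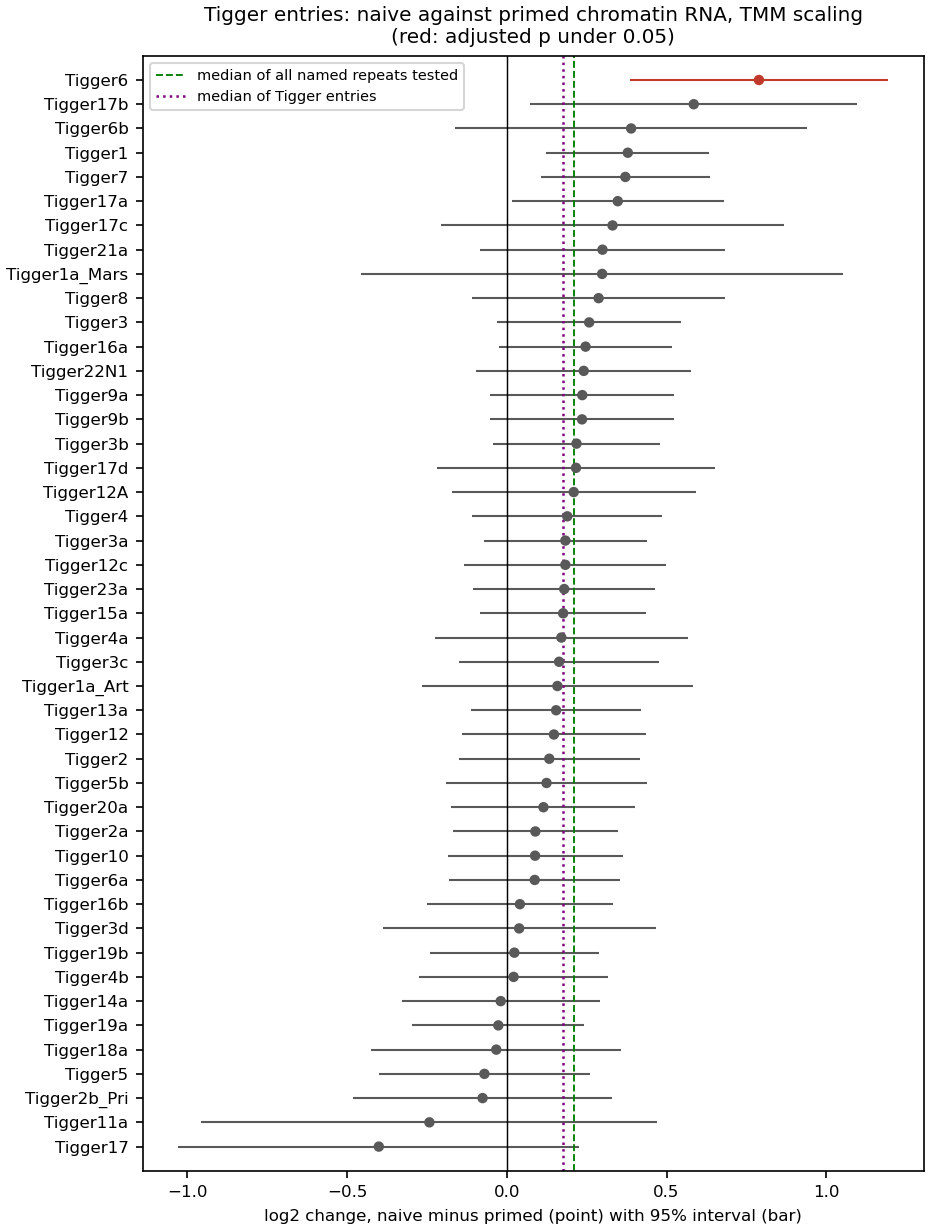
Log2 change of each of the 45 Tigger entries, naive minus primed, on the horizontal axis (point) with its 95% interval (bar), ordered by size; the dotted and dashed lines are the medians of the Tigger entries (0.18) and of the named repeats tested (0.21). Tigger6, in red, is the entry called, and 40 of the 45 intervals hold 0.

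Total counts per library ranged from 118793 in primed library 2 to 17791046 in naive library 2, and primed library 2 was far shallower than the rest. Tigger entries held 167860, 207050 and 260977 counts among the naive and 120117, 2848 and 170862 among the primed libraries. In primed library 2 a single count corresponds to 5.59 CPM (CPM: counts scaled to a common library total, here with TMM), and 7 of the 45 entries had at most 3 counts there, a level of 16.8 CPM. Alpha satellite, the tandem repeat of human centromeres, took between 25.3% and 42.9% of naive counts and between 0.221% and 0.625% of primed counts, and ribosomal RNA took between 0.169% and 17.7% of a library. The table has entries for 0 of 21 marker genes of pluripotent and other cells. HERVH-int, a retroviral repeat that pluripotent human cells are known to transcribe, was present in every library, between 24094 and 42442 CPM among naive and between 11938 and 16230 CPM among primed libraries, without overlap.

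Summed over the 45 entries, Tigger took 1.72%, 1.16% and 1.56% of all counts among naive libraries and 1.67%, 2.40% and 2.11% among primed libraries. Naive library 1 lay above primed library 1, so the groups overlapped, with means of 1.48% ± 0.288 among naive and 2.06% ± 0.366 among primed libraries (SD, n = 3). Outside alpha satellite and ribosomal RNA the same counts made up 2.51%, 2.26% and 2.39% among naive and 2.04%, 2.51% and 2.30% among primed libraries. The direction of the difference thus turned, from -0.576 percentage points of all counts to 0.102 points, and the groups still overlapped. With simple repeats also left out of the total, the shares were 2.52% ± 0.139 among naive and 2.46% ± 0.216 among primed libraries (SD, n = 3). On the TMM scale the summed Tigger value was 19093, 18554 and 18317 CPM among naive and 15195, 15932 and 17017 CPM among primed libraries, which did not overlap, at a ratio of means of 1.16.

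A ratio within a library does not depend on scaling factors. Charlie and Zaphod are families of the hAT superfamily, the other large group of human DNA transposons, and the 52 entries with those names served as the reference. Per 100 counts in them, Tigger entries had 181, 184 and 185 counts among naive libraries and 166, 189 and 176 among primed libraries. Primed library 2 was above and primed libraries 1 and 3 below every naive library. The means were 183 ± 2.33 and 177 ± 11.2 (SD, n = 3), a difference of 6.26 that was smaller than the spread of the primed libraries. It was 0.844 without primed library 1 and 12.05 without the shallow primed library 2, where the remaining groups did not overlap.

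**Figure D2:**
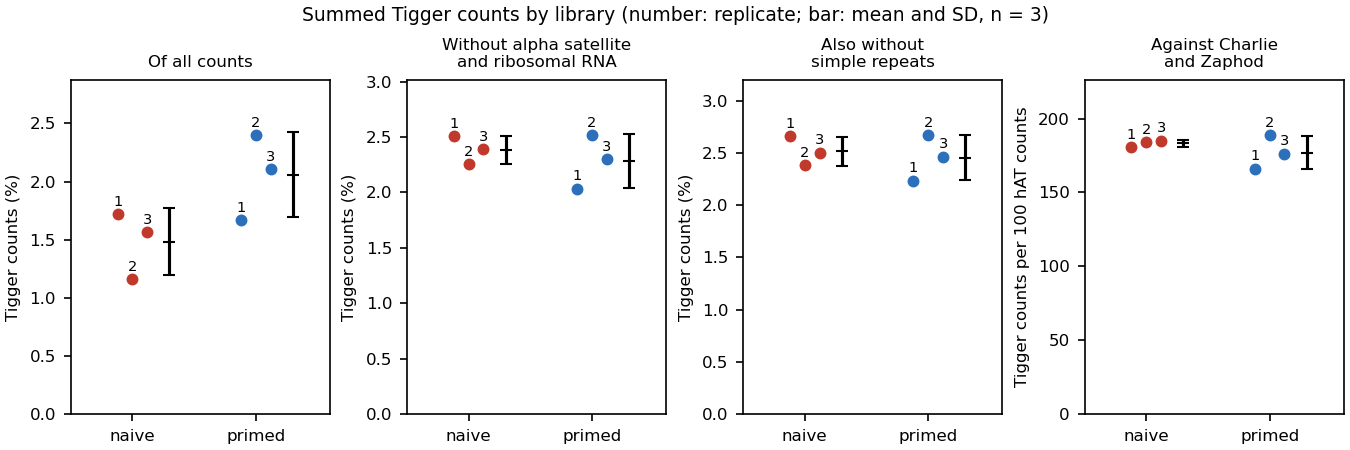
Summed Tigger counts of each library (point, with its replicate number) as a percentage of 3 totals, and per 100 counts of Charlie and Zaphod entries; bars give the mean and SD of 3 libraries. Naive and primed libraries overlap in these 4 panels, unlike the TMM-scaled sums, and the naive mean lies below the primed mean (1.48% against 2.06%) only where alpha satellite and ribosomal RNA are part of the total.

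With TMM scaling, 38 of the 45 entries lay above 0 and 7 below. In 19 of the 45 (42.2%) all 3 naive libraries stood above all 3 primed libraries, and in 0 all stood below. Over all entries tested 19.4% and over the named repeats 36% had the naive libraries on top, and 11% and 3.24% the primed ones, so the share among Tigger entries was near that of named repeats. The 95% interval of the log2 change lay within a 2-fold change in either direction for 41 of the 45. The other 4 were Tigger6, Tigger17, Tigger17b and Tigger1a_Mars.

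The Tigger6 group has 3 entries. Tigger6 stood at 48.2, 49.4 and 47.3 CPM among naive libraries and at 23.4, 39.2 and 30.6 CPM among primed libraries. The naive libraries lay close together and above every primed library. The primed values rested on 185, 7 and 307 counts, and the 7 counts of primed library 2 allow 15.7 to 80.7 CPM (95% exact Poisson interval, counting error only), a range that includes the naive values. The change of 0.79 (95% interval 0.38 to 1.19) had an adjusted p of 0.0238 by edgeR's quasi-likelihood test. Without primed library 1, the lowest of the 6, it was 0.59 (edgeR adjusted p = 0.199), and without naive library 2 it was 0.80 (0.0633). Calls over all entries tested also fell there, from 159 higher and 250 lower of 3219 in the fit to all 6 libraries. They were 8 and 7 of 3472 without primed library 1, and 56 and 122 of 3547 without naive library 2. The Tigger6 call was kept in 13 of the 18 alternatives that gave Tigger6 a value, over which the edgeR or DESeq2 adjusted p ranged from 0.000771 to 0.700, and the direction was kept in all 18.

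Tigger6a, with more counts than Tigger6, stood at 158, 161 and 160 CPM among naive and 147, 145 and 156 CPM among primed libraries. Its log2 change was 0.087 ± 0.12 (SE; edgeR adjusted p = 0.656), although the naive libraries were also all above the primed ones. Tigger6b, the entry of the group with the fewest counts, stood at 17.3, 19.9 and 18.2 CPM among naive and 12.3, 5.59 and 16.9 CPM among primed libraries, the 5.59 being 1 count (log2 0.39, edgeR adjusted p = 0.309). Per 100 counts of Tigger6a there were 30.6, 30.6 and 29.5 counts of Tigger6 among naive libraries and 15.9, 26.9 and 19.6 among primed libraries. The groups did not overlap in this ratio either (exact two-sided permutation p = 0.1, the smallest that 3 against 3 can give; 0.25 adjusted over 5 ratios compared, which were chosen after the values were seen). Against Tigger6b, with its 1 count in primed library 2, the groups overlapped (exact permutation p = 1).

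Tigger1, the first family by number, gave the most reads of all Tigger entries. Counts are not per length or per copy, so this order says nothing of the level of a single copy. It stood at 5471, 5598 and 5338 CPM among naive and at 3817, 4251 and 4551 CPM among primed libraries. Every naive library was above every primed one, with a gap wider than the range of the naive group. The change was 0.38 ± 0.12 (log2, SE; 95% interval 0.12 to 0.63), which just missed the threshold (edgeR adjusted p = 0.0536). Among the settings that called it were no filter on low counts (edgeR adjusted p = 0.0428), the removal of alpha satellite and ribosomal RNA (0.0459) and the removal of primed library 2 (0.0490). It was not called without primed library 1 (log2 0.29, edgeR adjusted p = 0.272) or by DESeq2 (0.37, adjusted p = 0.0648). Without primed library 1, 8 of all 3472 entries tested were called higher and 7 lower. Other scalings did not call Tigger1 either, with 0.34 by RLE factors (edgeR adjusted p = 0.0616) and 0.24 by upper-quartile factors (0.241). The change was 0.21 relative to the summed Charlie and Zaphod counts (edgeR adjusted p = 0.217). Relative to named repeats outside alpha satellite and ribosomal RNA it was 0.20 (edgeR adjusted p = 0.321). It was 0.15 with simple repeats left out of the fit (edgeR adjusted p = 0.341), and library size alone turned the direction (-0.32, edgeR adjusted p = 0.348).

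As a share of the Tigger counts, Tigger1 held 29.3% ± 0.774 among naive and 26.2% ± 0.921 among primed libraries (SD, n = 3). In the shallow primed library 2 it held 760 of 2848 counts, 26.7% (95% Wilson interval 25.1% to 28.3%). Per 100 counts of Tigger3b, the entry with the next most reads, Tigger1 had 394, 435 and 407 counts among naive and 367, 367 and 370 among primed libraries. These groups did not overlap (exact permutation p = 0.1; 0.25 adjusted over the 5 ratios). Fitted relative to the summed Tigger counts, the change of Tigger1 was 0.16 (edgeR adjusted p = 0.291). Its 2 sister entries had few counts: Tigger1a_Art gave a log2 change of 0.16 (edgeR adjusted p = 0.607), and Tigger1a_Mars, with 1 count in primed library 2, gave 0.30 (0.584).

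**Figure D3:**
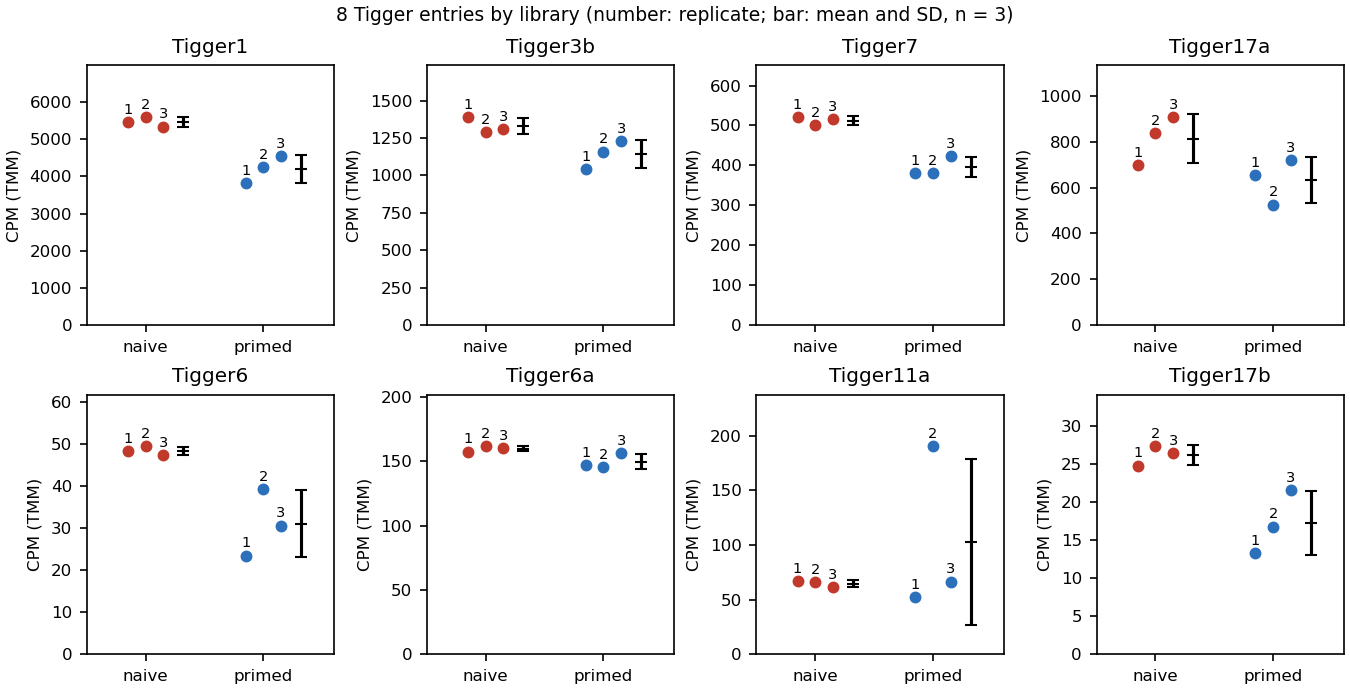
TMM-scaled CPM of 8 Tigger entries in each library (point, with its replicate number); bars give the mean and SD of 3 libraries a group. Tigger1, Tigger3b, Tigger7, Tigger6, Tigger6a and Tigger17b show naive libraries above all primed libraries, with a narrow gap for Tigger6a. The same holds for 42.2% of all Tigger entries and 36% of the named repeats tested. Tigger11a shows primed library 2 at 190 CPM far above the other 5.

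The 5 entries of the Tigger3 group had small log2 changes, all above 0, and none passed by edgeR. Tigger3b stood at 1388, 1286 and 1310 CPM among naive and at 1040, 1158 and 1229 CPM among primed libraries, a log2 change of 0.22 (95% interval -0.044 to 0.48; edgeR adjusted p = 0.234). Tigger3a stood at 1001, 942 and 940 against 804, 839 and 894 CPM (log2 0.18, edgeR adjusted p = 0.301). In both entries the naive libraries lay above the primed ones by less than the range of the primed group. Tigger3, Tigger3c and Tigger3d gave log2 changes of 0.26, 0.16 and 0.039. The whole group held 15.6% ± 0.363 of Tigger counts among naive and 15.7% ± 0.186 among primed libraries (SD, n = 3).

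Tigger2 and Tigger4 have 3 entries each. Tigger2 stood at 830, 783 and 787 CPM among naive and at 636, 817 and 750 CPM among primed libraries, with overlapping groups (log2 0.13, edgeR adjusted p = 0.514). Tigger2a gave 0.089 (edgeR adjusted p = 0.633). Tigger2b_Pri stood at 367, 316 and 327 CPM among naive and at 281, 492 and 332 CPM among primed libraries, so that primed library 2 was the highest of the 6 (log2 -0.076, edgeR adjusted p = 0.806). Without that library its change was 0.15 (edgeR adjusted p = 0.471).

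Tigger4a stood at 751, 663 and 639 CPM among naive and at 682, 408 and 696 CPM among primed libraries. Here primed library 2 was the lowest, and the other primed libraries lay within the naive range (log2 0.17, edgeR adjusted p = 0.549; 0.0040 without primed library 2, 0.985). Tigger4 gave 0.19 and Tigger4b 0.021, with edgeR adjusted p of 0.368 and 0.933.

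The Tigger17 group has 5 entries that did not all lie on the same side of 0. Tigger17a stood at 700, 838 and 908 CPM among naive and at 655, 526 and 721 CPM among primed libraries, with primed library 3 above naive library 1 (log2 0.35 ± 0.15, SE; edgeR adjusted p = 0.141). Tigger17b, a rarer entry, stood at 24.8, 27.3 and 26.5 CPM against 13.3, 16.8 and 21.6 CPM, without overlap. Its change of 0.59 (95% interval 0.074 to 1.10) did not pass (edgeR adjusted p = 0.115), and passed without primed library 3 (0.94, 0.0422). Tigger17c gave 0.33 and Tigger17d 0.22 (edgeR adjusted p = 0.385 and 0.490).

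Tigger17 itself stood at 14.9, 10.8 and 8.28 CPM among naive and at 16.2, 16.8 and 13.3 CPM among primed libraries, the lowest change of the 45 (log2 -0.40, 95% interval -1.03 to 0.23; edgeR adjusted p = 0.367). Primed library 3 lay below naive library 1. Per 100 counts of Tigger17a there were 1.45 ± 0.623 counts of Tigger17 among naive and 2.50 ± 0.671 among primed libraries (SD, n = 3; exact permutation p = 0.2, 0.333 adjusted over the 5 ratios). The ratio of Tigger17b to Tigger17a likewise overlapped (3.24 ± 0.317 and 2.74 ± 0.624 per 100, SD, n = 3; exact permutation p = 0.4, 0.5 adjusted).

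Among the remaining numbers, Tigger15a stood at 913, 863 and 856 CPM among naive and 723, 778 and 829 CPM among primed libraries (log2 0.18, edgeR adjusted p = 0.333). Tigger13a stood at 600, 569 and 567 against 507, 487 and 560 CPM (log2 0.15, edgeR adjusted p = 0.414). In both, primed library 3 came closest to the naive libraries, without overlap. Tigger7 stood at 521, 500 and 516 CPM among naive and 380, 380 and 423 CPM among primed libraries, with every naive library above every primed one, and did not pass the test (log2 0.37, 95% interval 0.11 to 0.64; edgeR adjusted p = 0.0625). It was chosen after its values were seen. Tigger19a and Tigger19b were nearly level in both states, at 502 ± 17.0 and 478 ± 28.4 CPM among naive and 507 ± 42.9 and 469 ± 19.0 CPM among primed libraries (SD, n = 3), with log2 intervals of -0.30 to 0.24 and -0.24 to 0.29.

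Tigger11a had the largest spread relative to its mean among primed libraries. It stood at 66.8, 66.0 and 61.3 CPM among naive and at 52.1, 190 and 66.4 CPM among primed libraries. The 190 CPM of primed library 2 are 34 counts, whose 95% exact Poisson interval of 132 to 266 CPM lies above the other 5 libraries. The log2 change was -0.24 (edgeR adjusted p = 0.640), and 0.14 without that library (0.559). The counting interval of primed library 2 also lay above the other 5 libraries for Tigger2b_Pri and Tigger18a, and below them for Tigger17a, Tigger4a and Tigger8, while it overlapped their range for the other 39 entries. Why this library departs in 6 entries was not tested.

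The 31 entries outside the naming rule had log2 changes between -0.070 and 0.37, 27 above 0 and 4 below, with a lowest edgeR adjusted p of 0.0625, that of Tigger7. The 4 below 0 were Tigger5, Tigger18a, Tigger19a and Tigger14a. Tigger8, Tigger9a, Tigger9b, Tigger16a, Tigger21a, Tigger22N1 and Tigger12A lay between 0.21 and 0.30. Tigger5b, Tigger10, Tigger12, Tigger12c, Tigger16b, Tigger20a and Tigger23a lay between 0.041 and 0.18. None of these 18 passed by edgeR with TMM scaling.

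The make-up of the Tigger counts differed by small amounts between the states. The 8 entries with the most reads held 61.0%, 62.2% and 61.9% of Tigger counts among naive libraries. Among primed libraries they held 58.3%, 58.1% and 60.1%, without overlap, and Tigger1 accounts for the largest share of these counts. When each library was scaled to its summed Tigger counts, 0 of 45 entries passed in either direction by edgeR, and 1 had an unadjusted p under 0.05. Tigger6 came closest, at 0.58 (adjusted p = 0.0588), and Tigger17 had the lowest change, at -0.63 (adjusted p = 0.179). Summed by the number in the name, shares of Tigger counts did not overlap between the groups for 5 of 23 numbers, with 1 and 7 higher and 2, 19 and 20 lower among naive libraries. Relative to the same total, 13.4% of the named repeats tested had all naive libraries above and 11.7% had all below. That background counts single entries, whereas a number can sum up to 5 entries, so the background is only a rough guide. The entries under the number 19 held 5.25% ± 0.111 of Tigger counts among naive and 6.10% ± 0.496 among primed libraries (SD, n = 3), without overlap, and neither entry passed in that fit; this number was chosen after its values were seen.

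**Figure D4:**
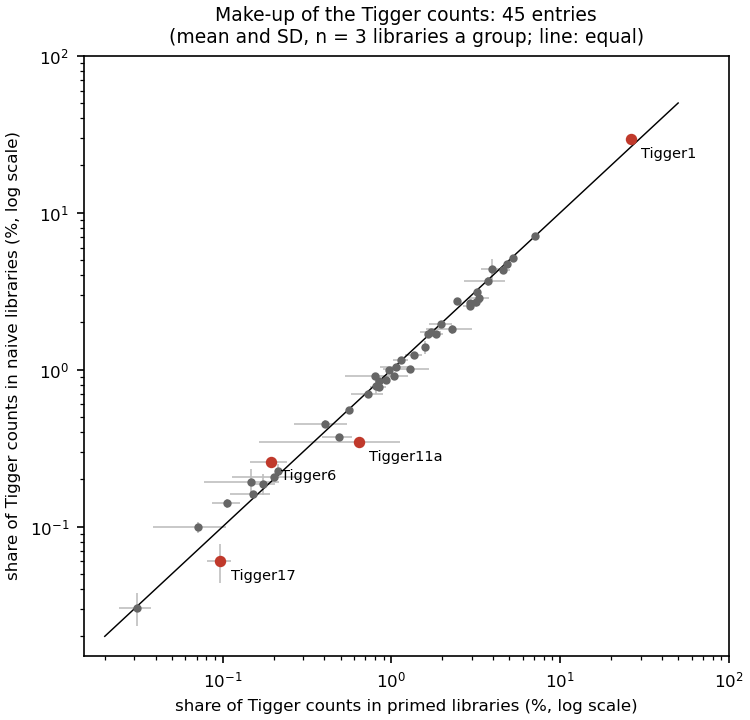
Share of the Tigger counts held by each of the 45 entries in primed (horizontal) and naive (vertical) libraries, both on log scales, as mean and SD of 3 libraries; the line marks equal shares. Most entries lie along the line, Tigger1 and Tigger6 above it (29.3% against 26.2%, and 0.259% against 0.193%), and Tigger11a and Tigger17 below it.

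Other DNA transposons gave medians near that of Tigger. Among 16 short elements that are related to Tigger and carry no transposase of their own (MER2, MER6, MER8, MER44, MER46, MER47 and MER127 entries, by repeat nomenclature), 0 passed in either direction by the main edgeR fit or DESeq2, 4 had an unadjusted p under 0.05 by edgeR, and the median log2 change was 0.18. Of all 1265 named repeats tested, 398 had such an unadjusted p. MER2, with the most reads, stood at 1617 ± 53.1 CPM among naive and 1371 ± 153 CPM among primed libraries (SD, n = 3; log2 0.23, edgeR adjusted p = 0.218). Among 13 further Tc1/mariner entries (HSMAR, MADE, MARNA, Kanga and MER104), 0 passed by the main edgeR fit or DESeq2 and 2 had an unadjusted p under 0.05 by edgeR, with a median of 0.12. HSMAR2, a mariner family, gave 0.15 (edgeR adjusted p = 0.592). With the replicate number as a block, 1 entry of each of these lists was called higher. Library size alone called 2 entries of each lower, beside 1051 of all 3219 entries tested.

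Of the 52 Charlie and Zaphod entries, 1 rose and 0 fell, with a median of 0.14. That entry was Zaphod4a, at 95.5 ± 15.3 CPM among naive and 40.5 ± 5.88 CPM among primed libraries (SD, n = 3; log2 1.29 ± 0.18, SE; edgeR adjusted p = 0.00443). The share of entries called higher, 1.92%, was close to the 2.22% of Tigger, but each share is 1 entry. With the replicate number as a block, 7 Charlie and Zaphod entries were called higher and 1 lower, against 2 and 0 of Tigger. Over all 3219 entries tested, that block called 264 higher and 374 lower. Without primed library 3, 4 Charlie and Zaphod entries and 2 Tigger entries were called higher, beside 125 of all 3432 entries tested. The difference between Tigger and the Charlie and Zaphod entries was not tested.

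The sign of the small Tigger median followed the scaling. It was 0.18 with TMM, 0.14 with RLE and 0.065 with upper-quartile factors, 0.021 relative to the summed Charlie and Zaphod counts, and 0.015 relative to all named repeats outside alpha satellite and ribosomal RNA. It was -0.040 relative to the Tigger total, -0.050 with simple repeats left out of the fit, and -0.47 with library size alone. The median of all named repeats went the same way, from 0.21 with TMM to -0.42 with library size alone, and in each of the 7 scalings it lay above that of Tigger by at most 0.054. Alpha satellite is part of the library total in the last of these, and no direction of the Tigger group can be told apart from the choice of scaling.

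**Figure D5:**
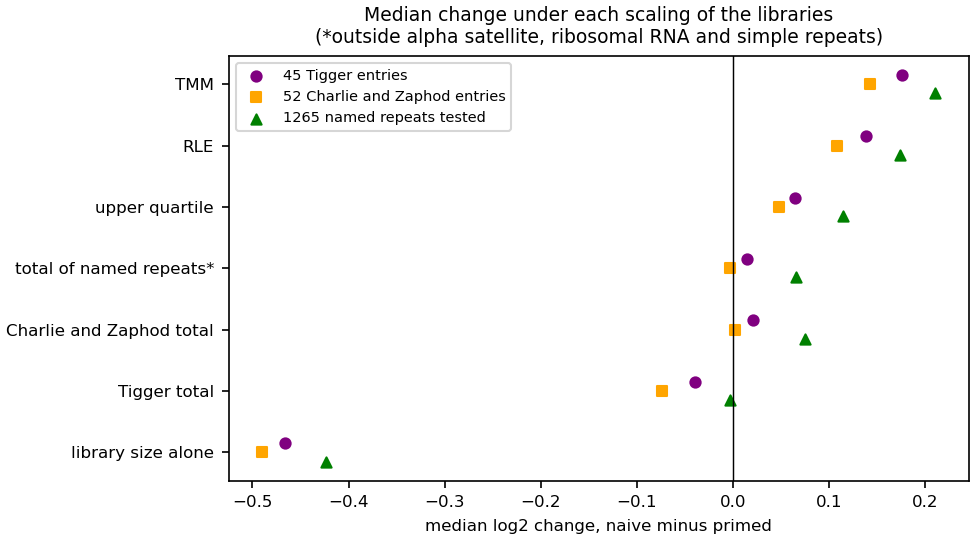
Median log2 change, naive minus primed (horizontal axis), of the 45 Tigger entries, the 52 Charlie and Zaphod entries and the 1265 named repeats tested, under 7 scalings of the libraries (vertical axis). All 3 medians shift together, and that of Tigger runs from 0.18 with TMM to -0.47 with library size alone.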

How the data were processed

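The labels' protocols give chromatin fractionation of the cells, RNA extraction on columns and a directional library kit. Trimmomatic 0.39, STAR 2.7.8a, featureCounts and Subread 2.14.2 are listed in the submitters' processing notes. Not given in the sources used here are the strand setting, the repeat annotation, the genome build and how multi-mapping reads were handled, so reads can be shared among related Tigger entries. The authors deposited raw, unnormalised counts for each repeat name, summed over all genomic copies; consensus sequences and positions were not used here. Columns were matched to samples by title and groups taken from the treatment label.

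The main test was that of edgeR 4.0.16 under R 4.3.3 (TMM, filterByExpr by group, quasi-likelihood F-test, naive minus primed, over all 6 libraries, Benjamini-Hochberg at 0.05); the 3219 entries tested held at least 99.7% of each library's counts. The SE is the log2 change divided by the square root of F, and 95% intervals use its t quantile; they hold for single entries. Intervals on counts cover counting error only. Entries named by rule were the 8 with the highest mean CPM, every entry called, and the 3 highest and 3 lowest log2 changes at a mean CPM of at least 5; further entries were chosen after their values were seen. The members and lists were chosen with earlier results of these data known. Alternatives were other scalings, DESeq2 1.42.0, other filters, entries left out, thinning to 118793 counts, the replicate block and each library left out. The procedure was tested on simulated data, where it called 59.8% of 97 entries changed 2-fold and 96.8% of 95 changed 4-fold. Of its 165 calls there, 9.09% were unchanged entries, more than the 5% that the threshold allows. Changes below 2-fold were not simulated. Figures were drawn with matplotlib 3.10.9.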

Additional observations from a re-analysis of the deposited data

How the results depend on the processing

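Of the 45 Tigger entries, the number called higher was 1 by edgeR with TMM. It was 2 with no filter, with alpha satellite and ribosomal RNA left out and with the replicate number as a block, and 0 with library size alone, relative to the summed Tigger counts, with simple repeats left out, and with all libraries thinned to primed library 2 (33 entries tested). The calls over all entries varied as well. With no filter 264 of 10175 were called higher, and 142 of 3361 without alpha satellite and ribosomal RNA. Library size alone gave 28 of 3219, and the summed Tigger counts 57 of 3219. Without simple repeats it was 31 of 1265, and after thinning 2 of 718. Leaving out 1 library gave 0 to 2 Tigger entries called higher: 0 without naive library 2 or primed library 1, and 2 without primed library 2 (Tigger1 and Tigger6) or primed library 3 (Tigger17b and Tigger6). Over all entries these 4 fits called, in that order, 56 of 3547, 8 of 3472, 187 of 3724 and 125 of 3432 higher. By DESeq2, 1 Tigger entry was called higher, beside 94 of 2124 entries. The number of Tigger entries called lower was 0 in each alternative but library size alone, where it was 9 (Tigger2b_Pri, Tigger4b, Tigger5, Tigger11a, Tigger14a, Tigger17, Tigger18a, Tigger19a and Tigger19b). That scaling called 1051 of all 3219 entries lower. At an unadjusted p under 0.05, 15 Tigger entries were lower with library size alone, 1 without simple repeats and 1 after thinning. In the same order, 19, 6 and 2 Charlie and Zaphod entries were lower. With the block, Tigger1 (log2 0.38, edgeR adjusted p = 0.0219) joined Tigger6. The block also raised the calls over all entries tested from 159 to 264 higher and from 250 to 374 lower. Same-numbered libraries correlated in their deviations by 0.150, 0.022 and 0.067, and differently numbered ones by -0.145 to 0.049. Each naive library correlated most with the primed library of its number, but primed library 2 correlated most with naive library 3. These values do not settle whether the numbers mark pairs. The labels name no pairs, and the main fit used none.

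The median of 0.18 became 0.065 with upper-quartile factors, 0.021 relative to Charlie and Zaphod, 0.015 relative to named repeats (a scaling chosen after seeing the data), -0.040 relative to the Tigger total, -0.050 without simple repeats, -0.037 after thinning and -0.47 with library size alone, and ran from 0.12 to 0.23 with 1 library left out. The difference in share of all counts, -0.576 points, became 0.102 without alpha satellite and ribosomal RNA and 0.0609 without simple repeats as well, and ran from -0.770 to -0.406 with 1 library left out. Tigger counts per 100 of Charlie and Zaphod differed by 0.844 to 12.05.

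Directions of entries named by rule turned as follows. With library size alone Tigger1 was at -0.32, Tigger3b -0.47, Tigger3a -0.50, Tigger15a -0.50, Tigger2 -0.56, Tigger17a -0.32, Tigger4a -0.46, Tigger13a -0.51, Tigger17b -0.027 and Tigger6b -0.20. Relative to the Tigger total Tigger3a was at -0.034, Tigger15a -0.040, Tigger2 -0.083, Tigger4a -0.048 and Tigger13a -0.062. Relative to Charlie and Zaphod Tigger2 was at -0.033 and Tigger13a -0.0024, and relative to named repeats Tigger2 was at -0.046 and Tigger13a -0.013. Without simple repeats Tigger3b was at -0.0080, Tigger3a -0.044, Tigger15a -0.050, Tigger2 -0.088, Tigger4a -0.071 and Tigger13a -0.074. After thinning Tigger2 was at -0.21, Tigger4a -0.037 and Tigger13a -0.067. With 1 library left out Tigger2b_Pri ran from -0.27 to 0.15 and Tigger11a from -0.61 to 0.14, both turning only without primed library 2. None of these turned values passed. Of all 45 entries, 37 turned with library size alone, and 2 of them passed: Tigger4b (-0.67, edgeR adjusted p = 0.0411) and Tigger19b (-0.65, 0.0486). The causes were not tested.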
